A study of Rattus norvegicus with 11 samples.

Results

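The RNA of the collagen gene family was examined in the striatum of rats at day 3 after intracerebral hemorrhage (ICH), a bleed into the brain tissue. Members were the genes whose symbol in the deposited table reads Col, a type number, the letter a and a chain number, with at least 10 counts summed over the 11 rats. Of 44 such symbols, 43 were members, among 30560 genes in the table. Col10a1, with 8 summed counts, stood just outside that minimum, and Col6a5 with 36, Col28a1 with 39, Col26a1 with 66 and Col6a4 with 119 were the members nearest to it. The filter on low counts kept 40 members among 15742 genes tested, so that Col26a1, Col6a5 and Col28a1 are given as levels only. By protein structure, 11 members are fibrillar collagens, 6 are the basement membrane chains Col4a1 to Col4a6, and 26 belong to other types, of which 23 were tested.

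The rats were adult male Sprague-Dawley animals, and each library held the poly(A) RNA of the ipsilateral striatum of 1 rat. Common ICH (IC, n = 3) was made by stereotaxic injection of 0.2 U bacterial collagenase VII-S in 1.0 µL saline, and severe ICH (IS, n = 3) by 0.6 U in 3.0 µL, so that dose and volume cannot be told apart. IS-HA rats (n = 3) received the IS dose, and 150 µL of the hematoma was withdrawn through a catheter at 6 h. Normal rats (n = 2) had neither collagenase nor aspiration, and a saline-injected group was not analysed here, so that needle, saline and collagenase were shared by the injured groups and absent from their reference. Collagenase itself cuts collagen protein, whereas the values below are of RNA only. The comparison of IS with IC addresses the severity of the bleed, which cannot be told apart from the dose of collagenase itself. That of IS-HA with IS addresses the removal of the hematoma. IS-HA rats were also anesthetized again for the catheter, and no group analysed here had the catheter without aspiration. Removal thus cannot be told apart from the second anesthesia and the catheter track.

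Collagens are the triple-helical proteins of the extracellular matrix. Fibrillar collagens form the load-bearing fibers of connective tissue, which the healthy brain holds mainly in its meninges and around its larger vessels, while type IV collagen forms the sheet of the basement membrane that every brain vessel rests on. Network, microfibril-forming, fibril-associated and transmembrane collagens link these fibers and sheets to each other and to cells, and after injury cells of the vessel wall and its surroundings are known to deposit a collagen-rich scar.

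Levels are given as TPM (length-scaled transcript abundance with a fixed total in each library) and so allow different genes to be compared. Values of single rats are always listed in the order of the replicate numbers, which were 1 and 3 in Normal, 2, 3 and 4 in IC and IS, and 1, 2 and 3 in IS-HA. Changes are log2 fold changes with their standard error (SE) from edgeR's quasi-likelihood F test on the counts. A gene is said to have risen or fallen where the log2 fold change was at least 1 in size and the Benjamini-Hochberg adjusted p over the 15742 genes was under 0.05.

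The counts assigned to genes ranged from 6701301 in IS-HA replicate 2 to 18817645 in IC replicate 3, where 3 counts correspond to 0.448 and 0.159 CPM (counts scaled to a fixed library total). Between replicates of a group, the chi-square of the counts per degree of freedom was 67.9 and 87.7 for the pairs that hold IS-HA replicate 2 and 11.5 for the remaining IS-HA pair, and at most 46.6 within the other groups, so that this rat stood apart and the comparisons of IS-HA with Normal and with IS are given with and without it. IC replicate 3 held the highest value of its group for 26 of the 40 tested collagens (65.0%, and 37.7% of all genes tested), and IC replicate 4 the lowest for 30 (75.0%, and 32.1%). IS-HA replicate 2 was the lowest of its group for 23 (57.5%, and 45.6%). The striatal neuron markers had a summed level of 6301 to 6720 TPM in Normal, 2775 to 5496 in IC, 1353 to 3568 in IS and 1363 to 3026 in IS-HA, and the cortical glutamatergic markers ranged from 10.7 TPM in IS replicate 4 to 376 in IS replicate 2.

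In Normal striatum Col11a2, a fibrillar chain best known from cartilage, had the highest level of all members. Its level was 114 and 93.6 TPM in Normal, 59.5, 50.0 and 55.5 in IC, 25.2, 38.9 and 13.9 in IS and 39.6, 25.7 and 37.1 in IS-HA. The Normal rats lay above every injured rat, and the 3 IS rats spread from 13.9 to 38.9 TPM. Next in the order of Normal means came Col9a3 at 27.0 ± 1.77 TPM (SD, n = 2), Col25a1 at 18.4 ± 9.19, Col5a3 at 17.1 ± 1.64, Col4a2 at 16.3 ± 0.425, Col16a1 at 16.2 ± 1.11 and Col18a1 at 15.0 ± 0.0875, and from Col25a1 to Col16a1 neighbors differed by less than the larger SD of each pair. In IS the order began with Col4a1 at 83.0 ± 14.6 TPM (SD, n = 3), Col3a1 at 69.5 ± 18.0, Col1a1 at 52.2 ± 14.1 and Col4a2 at 48.6 ± 7.71, again with neighbors within their spread, and Col11a2 was at rank 13. By the mean, Col4a1 held rank 1 in all 3 injured groups and rank 8 in Normal, although in IC its mean of 55.2 TPM was within its SD of 26.0 of the mean of Col11a2, which was the higher of the pair in IC replicates 2 and 4, and Col3a1 held rank 16 in Normal, 5 in IC and 2 in IS and IS-HA.

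Summed over the 43 members, collagen RNA stood at 336 and 341 in Normal, 470, 700 and 410 in IC, 715, 578 and 588 in IS and 559, 360 and 572 in IS-HA in TPM. The mean was 1.56 times that of Normal in IC, 1.85 times in IS and 1.47 times in IS-HA. Every injured rat lay above both Normal rats, IS-HA replicate 2 by the smallest margin. The make-up of the sum differed as well. Col11a2 alone accounted for 34.1% and 27.5% of it in Normal, and for 7.14% to 13.5% in IC, 2.36% to 6.72% in IS and 6.48% to 7.15% in IS-HA. The basement membrane chains made up 12.2% and 10.8% in Normal and 17.8% to 23.3% in the injured rats, with no overlap. These shares are descriptions without a test.

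**Figure D1:**
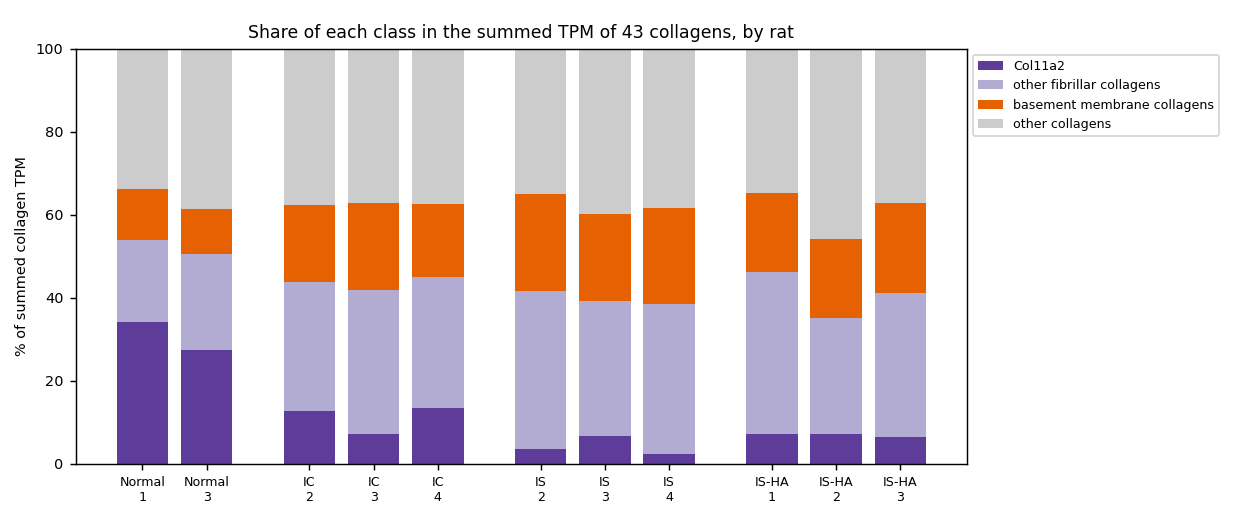
Stacked bars give, for each of the 11 rats (group and replicate number on the x axis), the percentage of the summed TPM of the 43 collagens that came from Col11a2, the other fibrillar collagens, the basement membrane collagens and the remaining collagens. Col11a2 took 34.1% and 27.5% in the Normal rats and at most 13.5% in an injured rat, and the basement membrane share was above 17% in every injured rat and at most 12.2% in Normal.

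Against Normal, the share of collagens that rose was above that of all genes in each injured group. In IC, 13 of 40 rose (32.5%, beside 10.9% of all genes tested) and 2 fell (5.0%, beside 2.66%). In IS, 19 rose (47.5%, beside 18.8%) and 6 fell (15.0%, beside 17.0%). In IS-HA, 12 rose (30.0%, beside 15.1%) and 3 fell (7.5%, beside 7.71%). The shares that fell in IS and IS-HA were thus near the background. The median log2 fold change of the 40 collagens was 0.60 in IC, 0.71 in IS and 0.71 in IS-HA, where that of all genes was 0.00, 0.02 and 0.06. Every injured rat lay above both Normal rats, in normalized CPM, for 23 of the 40 collagens in IC (32.4% of all genes), 22 in IS (37.6%) and 19 in IS-HA (31.7%), and below both for 6 (31.3%), 6 (36.9%) and 7 (29.2%). The 3 comparisons share the 2 Normal rats and are not independent of each other.

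**Figure D2:**
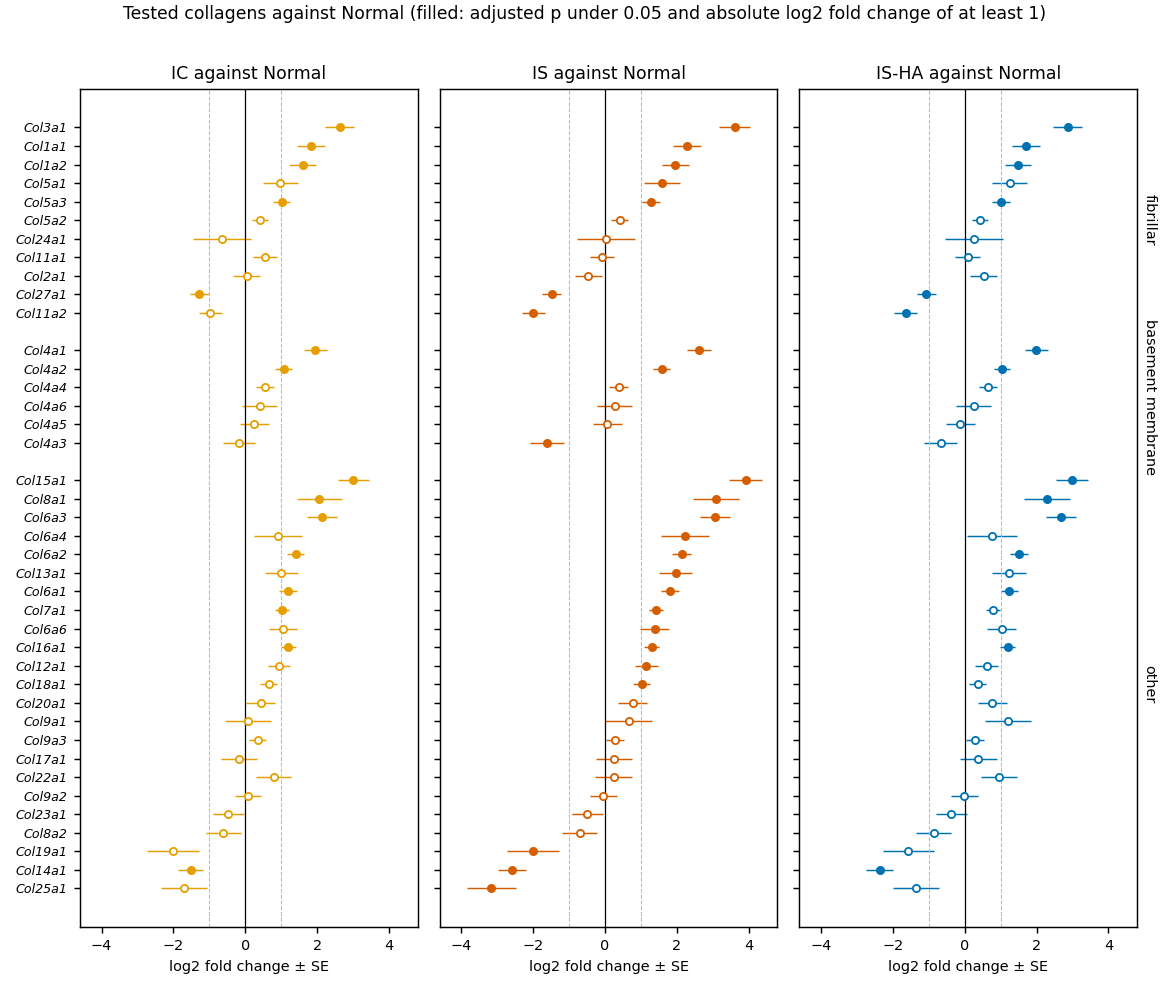
Points give the log2 fold change (x axis) of each of the 40 tested collagens, with bars of 1 SE, against Normal for IC, IS and IS-HA. Collagens are grouped as fibrillar, basement membrane and other and ordered by their value in IS, and filled points passed both cutoffs, which are an absolute log2 fold change of 1 (dashed) and an adjusted p of 0.05. Col15a1 (3.91) and Col3a1 (3.60) stand highest in IS and Col25a1 (-3.16) lowest.

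The counts rested in part on single rats. Without Normal replicate 1 or Normal replicate 3 the number that rose in IC was 6, and without IC replicate 3 it was 7. The number that fell in IC was 0 without Normal replicate 1, 1 without Normal replicate 3, IC replicate 3 or IC replicate 4, and 4 without IS-HA replicate 2, which enters this comparison through the shared estimate of the spread. With each of the 11 rats left out in turn, 3 of the 13 rises in IC held throughout (Col15a1, Col3a1 and Col4a1) and 0 of its 2 falls, as did 13 of the 19 rises and 4 of the 6 falls in IS, and 7 of the 12 rises and 2 of the 3 falls in IS-HA. Without IS-HA replicate 2, 13 rose in IS-HA, beside 12.7% of all genes, and 2 fell, beside 5.83%, with Col5a1 gained among the rises and Col27a1 lost among the falls.

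Among the 11 fibrillar collagens, 4 rose in IC, 5 in IS and 4 in IS-HA, and 1, 2 and 2 fell (36.4%, 45.5% and 36.4%, and 9.09%, 18.2% and 18.2%, to be read beside the shares of all genes above, which the falls in IS are near). Type III collagen, encoded by Col3a1, is the thin-fiber collagen of vessel walls and of early scars. Its level was 4.76 and 6.78 TPM in Normal, 27.1, 57.8 and 27.1 in IC, 90.0, 56.7 and 61.8 in IS and 61.6, 22.7 and 46.7 in IS-HA. All 9 injured rats lay above both Normal rats, and IS-HA replicate 2 was the lowest of them. Col3a1 rose by 2.63 ± 0.40, 3.60 ± 0.42 and 2.87 ± 0.41 on the log2 scale in IC, IS and IS-HA (edgeR adjusted p = 0.00135, 0.000136 and 0.000675), and no rat left out ended the call.

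Col1a1 and Col1a2 encode the chains of type I collagen, the main fiber of scar and bone. Col1a1 stood at 8.38 and 13.4 TPM in Normal, 34.3, 59.2 and 27.3 in IC, 67.4, 39.6 and 49.5 in IS and 45.6, 17.1 and 47.8 in IS-HA, with IS-HA replicate 2 nearest to Normal and no overlap. RefSeq has the coding gene Sgca overlapping Col1a1. Col1a1 rose by 1.83 ± 0.39, 2.28 ± 0.40 and 1.70 ± 0.39 on the log2 scale in IC, IS and IS-HA (edgeR adjusted p = 0.00944, 0.00125 and 0.00892). Leaving out Normal replicate 1 or 3 ended its call in IC, at an adjusted p of 0.0930 and 0.0528, and leaving out Normal replicate 1 ended that in IS-HA, at 0.0788. Col1a2 stood at 5.58 and 13.4 TPM in Normal, 26.1, 39.5 and 22.7 in IC, 47.7, 26.7 and 33.5 in IS and 35.4, 16.6 and 28.6 in IS-HA. Its Normal rats differed from each other more than those of Col1a1, and the lowest injured rat was again IS-HA replicate 2. The log2 fold change of Col1a2 was 1.59 ± 0.37, 1.95 ± 0.37 and 1.48 ± 0.37 (edgeR adjusted p = 0.0138, 0.00198 and 0.0126), and its call was lost without Normal replicate 1 in IC (0.106) and IS-HA (0.0960) and without IC replicate 3 in IC (0.0531). The ratio of Col1a1 to Col1a2 in TPM ranged from 0.999 to 1.50 in Normal and from 1.03 to 1.67 in the injured rats, which overlap. The ratio of Col3a1 to Col1a1 was 0.568 and 0.507 in Normal, 0.790, 0.977 and 0.994 in IC, 1.34, 1.43 and 1.25 in IS and 1.35, 1.32 and 0.977 in IS-HA, so that every injured rat lay above Normal and every IS rat above every IC rat.

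Type V collagen sets the diameter of type I fibers, and its 3 genes differed from each other. Col5a1 stood at 0.916 and 1.78 TPM in Normal, 2.71, 3.81 and 1.70 in IC, 4.41, 3.75 and 3.77 in IS and 4.22, 0.967 and 4.81 in IS-HA, and IC replicate 4 and IS-HA replicate 2 lay between the Normal rats. It rose in IS, with log2 fold changes of 0.97 ± 0.49, 1.59 ± 0.50 and 1.25 ± 0.49 in IC, IS and IS-HA (edgeR adjusted p = 0.183, 0.0223 and 0.0746), and without Normal replicate 1 or 3 the adjusted p in IS was 0.151 and 0.0516. In IS-HA it was called without IS-HA replicate 2, at 1.62 ± 0.33 (edgeR adjusted p = 0.00581), and by DESeq2's Wald test and voom with all rats. Col5a2, the gene next to Col3a1 on the chromosome, stood at 8.14 and 7.61 TPM in Normal, 12.5, 12.3 and 8.10 in IC, 11.4, 9.76 and 9.95 in IS and 14.7, 7.07 and 11.1 in IS-HA. Its groups were close, the log2 fold change was 0.41 ± 0.23, 0.41 ± 0.23 and 0.43 ± 0.23, and no comparison passed (edgeR adjusted p = 0.225, 0.159 and 0.162). Col5a3 had means of 17.1 ± 1.64 TPM in Normal, 36.1 ± 12.6 in IC, 41.1 ± 2.96 in IS and 35.1 ± 7.50 in IS-HA (SD) and rose in all 3 groups, by 1.01 ± 0.24, 1.28 ± 0.25 and 1.01 ± 0.24 (edgeR adjusted p = 0.0171, 0.00199 and 0.0112). Its changes in IC and IS-HA lay at the fold cutoff, and with DESeq2's size factors in edgeR both were under it, at 0.98 and 0.97. Without Normal replicate 3 they were 0.85 and 0.85, and the call was also lost in IC without Normal replicate 1 (adjusted p of 0.0577), IC replicate 3 (0.74) or, by less than the printed digits, IS-HA replicate 3, and in IS-HA without IS replicate 3 (0.98) or IS-HA replicate 1 (0.93).

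The fibrillar chains that fell were Col11a2 and Col27a1. Col11a2, whose levels are given above, had log2 fold changes of -0.98 ± 0.32, -2.00 ± 0.32 and -1.65 ± 0.32 in IC, IS and IS-HA (edgeR adjusted p = 0.0555, 0.000746 and 0.00380), so that it fell in IS and IS-HA, with no rat ending either call, and missed both cutoffs narrowly in IC, where DESeq2's Wald test and DESeq2's size factors in edgeR called it lower. Col27a1, a fibrillar chain of cartilage and other tissues, stood at 14.0 and 11.5 TPM in Normal, 5.08, 5.95 and 5.37 in IC, 3.66, 4.74 and 5.11 in IS and 6.37, 3.93 and 8.60 in IS-HA. All injured rats lay below both Normal rats. It fell in the 3 groups, with log2 fold changes of -1.28 ± 0.26, -1.48 ± 0.26 and -1.07 ± 0.26 (edgeR adjusted p = 0.00673, 0.00127 and 0.0115), and lost its call without Normal replicate 1 in IC (0.0755) and IS-HA (0.0975), and without IS-HA replicate 2 in IS-HA, where the log2 fold change was then -0.92. Col11a1, the partner chain of Col11a2, had means of 5.16 ± 0.178 TPM in Normal, 7.93 ± 2.43 in IC, 4.85 ± 1.37 in IS and 5.71 ± 2.87 in IS-HA and log2 fold changes of 0.55 ± 0.34, -0.09 ± 0.34 and 0.08 ± 0.34 that did not pass (edgeR adjusted p = 0.278, 0.849 and 0.866). The ratio of Col11a2 to Col11a1 was 22.7 and 17.7 in Normal and between 3.89 and 10.1 in the injured rats. Col2a1 (means of 1.11 to 2.32 TPM) and Col24a1 (0.553 to 1.04 TPM) passed in no comparison.

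**Figure D3:**
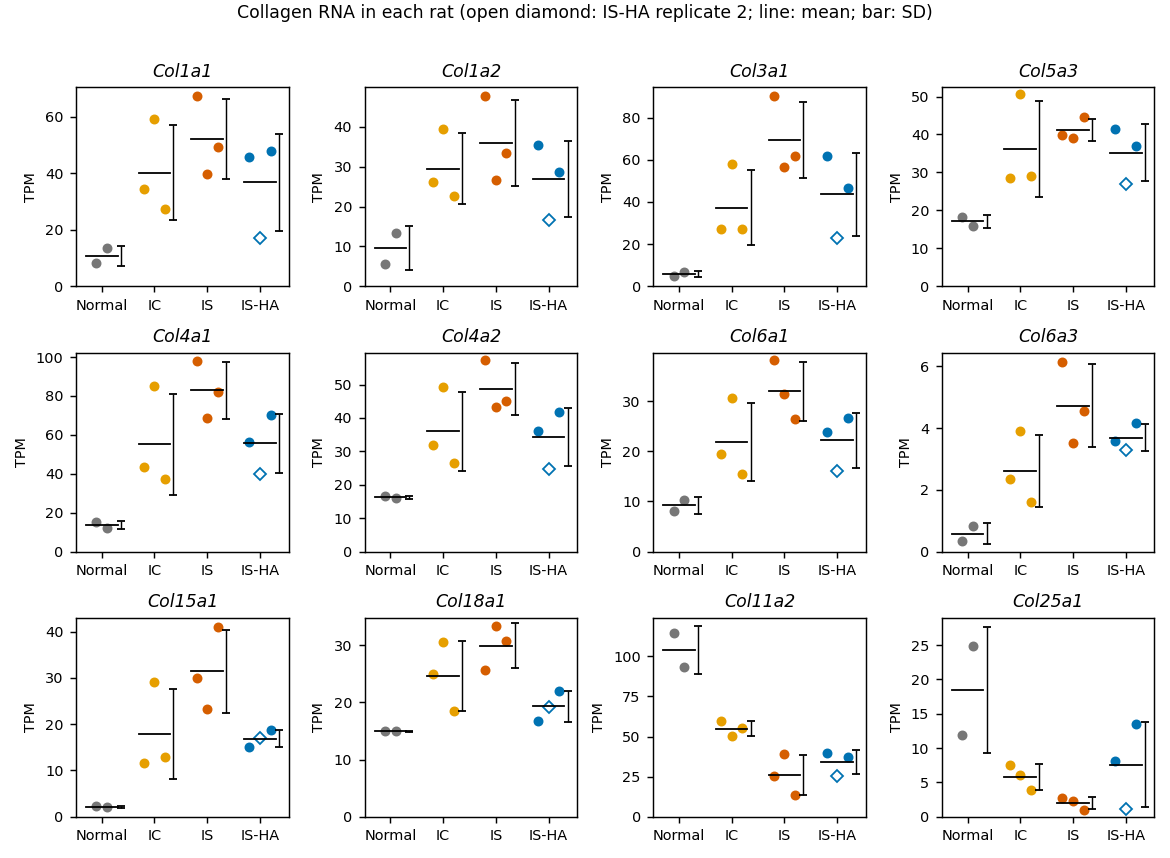
Points show the TPM (y axis, from 0) of 12 collagens in each rat of Normal, IC, IS and IS-HA, with the group mean as a line, the SD as a bar and IS-HA replicate 2 as an open diamond. Col1a1, Col3a1, Col4a1 and Col15a1 lie higher in every injured rat than in Normal, and Col11a2 lies lower.

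Among the 6 basement membrane chains, Col4a1 and Col4a2 rose in IC, IS and IS-HA, and Col4a3 fell in IS. Col4a1 and Col4a2 form the type IV collagen found in nearly all basement membranes, those of brain vessels included. Col4a1 stood at 15.1 and 12.0 TPM in Normal, 43.6, 85.0 and 37.1 in IC, 98.0, 68.9 and 82.1 in IS and 56.3, 40.0 and 70.4 in IS-HA. Every injured rat lay above both Normal rats. Col4a1 rose by 1.94 ± 0.32, 2.62 ± 0.33 and 1.99 ± 0.32 on the log2 scale (edgeR adjusted p = 0.00228, 0.000218 and 0.00149), and no rat left out ended a call. Col4a2 stood at 16.6 and 16.0 TPM in Normal, 31.8, 49.4 and 26.7 in IC, 57.5, 43.3 and 45.1 in IS and 36.2, 24.9 and 41.9 in IS-HA, also without overlap, and its log2 fold change was 1.07 ± 0.23, 1.58 ± 0.23 and 1.03 ± 0.23 (edgeR adjusted p = 0.00934, 0.000493 and 0.00753). Its call in IC was lost without Normal replicate 1 (0.0539) or 3 (0.124) and, by the fold cutoff, without IC replicate 3 (0.82), and that in IS-HA without Normal replicate 3 (0.0883) or, by the fold cutoff, IS-HA replicate 3 (0.92). The ratio of Col4a1 to Col4a2 was 0.906 and 0.752 in Normal, 1.37, 1.72 and 1.39 in IC, 1.70, 1.59 and 1.82 in IS and 1.56, 1.61 and 1.68 in IS-HA. Both Normal rats lay below 1, and every injured rat lay above it.

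Both genes start within the same short interval and are read away from each other. RefSeq (GRCr8) places 76 bases between their starts, and the interval is shown because the 2 genes that it separates rose together. The capitals mark the only copy of GGGCGG, here as its complement CCGCCC, a motif known as the GC box. For comparison the 100 bases before the start of the RefSeq gene are shown for Col1a2 and Col15a1, which rose, and for Col4a3, which fell in IS, each on the plus strand. Whether transcription begins at these annotated starts was not tested, so that a stretch shown need not be the promoter. The Col4a3 stretch holds 1 GC box, in capitals, and those of Col1a2 and Col15a1 hold none.
Col4a2-Col4a1 interval, chr16:84885521-84885596, plus strand: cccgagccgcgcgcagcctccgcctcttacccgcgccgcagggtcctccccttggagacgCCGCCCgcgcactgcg
Col1a2, chr4:33518457-33518556, plus strand: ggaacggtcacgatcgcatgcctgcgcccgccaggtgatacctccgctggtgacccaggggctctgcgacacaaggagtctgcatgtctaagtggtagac
Col15a1, chr5:66297446-66297545, plus strand: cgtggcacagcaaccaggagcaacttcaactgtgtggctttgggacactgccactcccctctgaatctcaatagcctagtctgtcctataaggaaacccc
Col4a3, chr9:91323890-91323989, plus strand: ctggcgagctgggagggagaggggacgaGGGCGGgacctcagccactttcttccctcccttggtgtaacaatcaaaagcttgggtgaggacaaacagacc

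A sequence before the start was found for 34 of the 43 members. On either strand, GGGCGG lay within 250 bases before the start in 19 of the 34 (55.9%), where 32.4% of 27457 genes hold it, and within 100 bases in 17 (50.0%, and 23.1%). The CCAAT motif lay within 250 bases in 10 (29.4%, and 34.3%) and TATAAA in 3 (8.82%, and 13.1%), and neither was found in the 4 stretches shown. Within 250 bases, but outside the stretches shown, Col1a2 held both motifs and Col4a1 and Col4a2 held CCAAT. These matches are descriptions of the letters only.

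Col4a3 belongs, with Col4a4 and Col4a5, to the type IV collagen of kidney, lung and a few other basement membranes. Its level was 1.31 and 1.39 TPM in Normal, 1.29, 1.39 and 1.05 in IC, 0.557, 0.389 and 0.357 in IS and 1.01, 0.214 and 1.40 in IS-HA. All IS rats lay below every Normal and IC rat, and the IS-HA rats spread from 0.214 to 1.40 TPM, with replicate 2 lowest at 4 counts. The log2 fold change was -0.17 ± 0.45, -1.61 ± 0.48 and -0.67 ± 0.46 (edgeR adjusted p = 0.815, 0.0176 and 0.270), and the fall in IS lost its call without Normal replicate 1 (0.0652), Normal replicate 3 (0.0737) or IS replicate 3 (0.0546). Col4a4, which shares a start region with Col4a3, had means of 2.03 ± 0.344 TPM in Normal, 3.09 ± 0.421 in IC, 2.62 ± 0.200 in IS and 3.29 ± 1.09 in IS-HA and passed in no comparison. The ratio of Col4a4 to Col4a3 was 1.73 and 1.29 in Normal, 2.43, 2.50 and 2.53 in IC, 4.99, 6.16 and 7.54 in IS and 4.14, 9.65 and 2.59 in IS-HA, with every IS rat above every IC rat and IS-HA between 2.59 and 9.65. Col4a5 (means of 4.34 to 5.64 TPM) and Col4a6 (1.14 to 1.57 TPM) did not pass either.

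**Figure D4:**
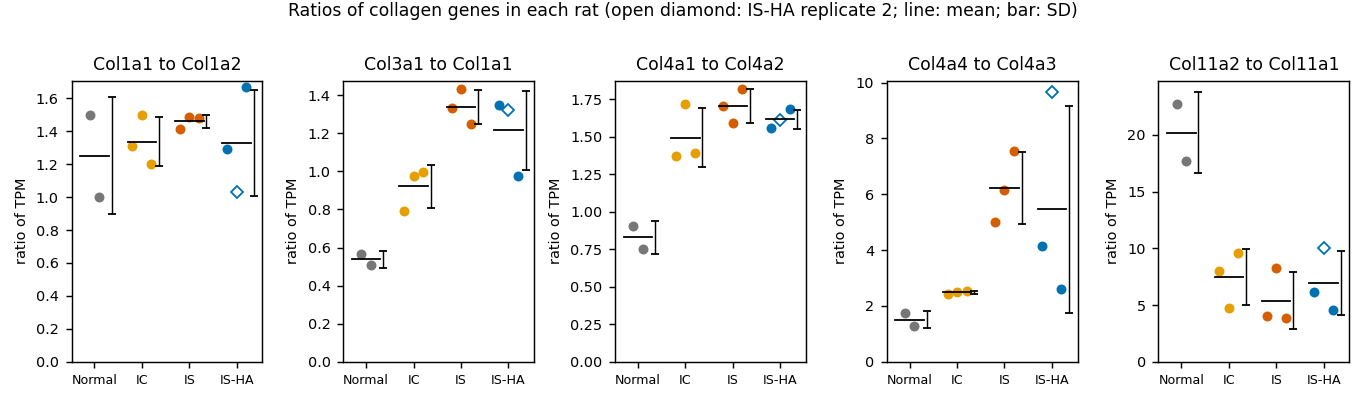
Points show, for each rat, the ratio of the TPM of 2 collagen genes (y axis, from 0, no unit), with the group mean as a line, the SD as a bar and IS-HA replicate 2 as an open diamond. The ratio of Col4a1 to Col4a2 is at most 0.91 in Normal and at least 1.37 in the injured rats, and that of Col11a2 to Col11a1 is at least 17.7 in Normal and at most 10.1 in the injured rats.

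Of the 23 other collagens tested, 7 rose in IC, 12 in IS and 6 in IS-HA, and 1, 3 and 1 fell. Of all genes tested, 10.9%, 18.8% and 15.1% rose in these groups, and 2.66%, 17.0% and 7.71% fell. The falls in IS and IS-HA were thus not above the background. Type VI collagen, which forms beaded microfibrils around cells, rose in 3 of its 5 tested genes in IC, 5 in IS and 3 in IS-HA, to be read beside the same shares. Col6a1 stood at 8.04 and 10.3 TPM in Normal, 19.5, 30.6 and 15.5 in IC, 38.2, 31.4 and 26.4 in IS and 23.9, 16.1 and 26.7 in IS-HA, and Col6a2, the gene beside it, at 6.90 and 5.46 TPM in Normal, 13.8, 23.8 and 13.9 in IC, 30.6, 24.3 and 26.1 in IS and 18.1, 16.1 and 19.8 in IS-HA. No injured rat overlapped with Normal for either gene. Col6a1 rose by 1.19 ± 0.24, 1.81 ± 0.25 and 1.25 ± 0.25 on the log2 scale (edgeR adjusted p = 0.00740, 0.000342 and 0.00417) and Col6a2 by 1.40 ± 0.25, 2.13 ± 0.25 and 1.52 ± 0.25 (edgeR adjusted p = 0.00313, 0.000147 and 0.00150). In IC the call of Col6a1 was lost without Normal replicate 1 (0.0789) or 3 (0.0560) and, by the fold cutoff, without IC replicate 3 (0.91), and that of Col6a2 without Normal replicate 3 (0.0614).

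Col6a3, the chain whose C5 domain is released as endotrophin, stood at 0.331 and 0.823 TPM in Normal, 2.35, 3.89 and 1.60 in IC, 6.15, 3.50 and 4.54 in IS and 3.59, 3.30 and 4.17 in IS-HA. The level in Normal was under 1 TPM, and all injured rats lay above it. Its log2 fold changes were 2.13 ± 0.41, 3.06 ± 0.43 and 2.68 ± 0.42 (edgeR adjusted p = 0.00551, 0.000364 and 0.00124), and the call in IC was lost without Normal replicate 1 (0.0579). Col6a4 and Col6a6, at means of at most 0.523 and 0.539 TPM, rose in IS by 2.22 ± 0.66 and 1.39 ± 0.40 (edgeR adjusted p = 0.0177 and 0.0153). Both lost this call without Normal replicate 1 (0.126 and 0.125), and Col6a4 also without IS replicate 4 (0.0613). Col6a4, Col6a5 and Col6a6 lie side by side, and RefSeq has Rpl29 overlapping each of them, so that reads could be shared where strand was not used in the counting, which the sources used here do not state.

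The multiplexins Col15a1 and Col18a1 carry sugar chains and sit in the basement membrane zone of vessels. With all rats, Col15a1 had the largest log2 fold change of all tested collagens in IC, IS and IS-HA. In each group it and Col3a1 lay within their SE of each other. Without IS-HA replicate 2, Col3a1 was ahead in IS-HA, where Col15a1 stood at 2.85 ± 0.45. The level of Col15a1 was 2.23 and 2.01 TPM in Normal, 11.6, 29.2 and 13.0 in IC, 30.0, 23.2 and 41.0 in IS and 15.0, 17.1 and 18.7 in IS-HA. The Normal rats were near 2 TPM, and no injured rat was under 11.6. Col15a1 rose by 3.00 ± 0.43, 3.91 ± 0.45 and 2.99 ± 0.43 on the log2 scale (edgeR adjusted p = 0.000958, 0.000122 and 0.000754), and no rat left out ended a call. Col18a1, the source of endostatin, stood at 14.9 and 15.1 TPM in Normal, 25.0, 30.5 and 18.4 in IC, 25.7, 33.3 and 30.8 in IS and 16.7, 19.3 and 22.0 in IS-HA, with values in IS-HA replicate 1 close to Normal. It rose in IS by 1.02 ± 0.23 (edgeR adjusted p = 0.00500), at the fold cutoff, and was at 0.65 ± 0.23 in IC and 0.36 ± 0.23 in IS-HA, which did not pass. Without Normal replicate 3 the adjusted p in IS was 0.0534, and without IS replicate 3 or 4 the log2 fold change was 0.95.

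Col8a1, a short-chain collagen of the layer beneath the endothelium, stood at 0.580 and 0.593 TPM in Normal, 1.83, 4.36 and 1.54 in IC, 6.94, 3.09 and 5.08 in IS and 4.38, 0.869 and 3.76 in IS-HA. The injured rats lay above Normal, and IS-HA replicate 2 was nearest to it. It rose by 2.06 ± 0.63, 3.09 ± 0.65 and 2.29 ± 0.64 on the log2 scale (edgeR adjusted p = 0.0463, 0.00317 and 0.0210). In IC this call was lost with 8 of the 11 rats left out (both Normal, IC replicates 3 and 4, the IS rats and IS-HA replicate 3), at adjusted p values of 0.0507 to 0.260, and in IS-HA without Normal replicate 1 (0.0957) or 3 (0.139). Its relative Col8a2, at means of 0.697 to 1.28 TPM, passed in no comparison.

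Col7a1, the collagen of the anchoring fibrils of skin, stood at 2.23 and 1.92 TPM in Normal, 4.83, 4.58 and 3.71 in IC, 5.44, 5.60 and 5.51 in IS and 4.03, 3.24 and 3.68 in IS-HA. The 3 IS rats lay between 5.44 and 5.60 TPM, and every injured rat was above Normal. The log2 fold change was 1.01 ± 0.19, 1.42 ± 0.20 and 0.79 ± 0.19 (edgeR adjusted p = 0.00525, 0.000348 and 0.0118), so that it rose in IC and IS and stayed under the fold cutoff in IS-HA. The IC value lay at that cutoff and was under it without Normal replicate 3 (0.84), IC replicate 2 (0.95) or, by less than the printed digits, IS-HA replicate 3. Col16a1, a fibril-associated collagen, had means of 16.2 ± 1.11 TPM in Normal, 38.9 ± 11.7 in IC, 39.2 ± 2.14 in IS and 37.3 ± 2.64 in IS-HA and rose in all 3 groups by 1.20 ± 0.21, 1.30 ± 0.21 and 1.19 ± 0.21 (edgeR adjusted p = 0.00333, 0.000883 and 0.00251). Without IC replicate 3 its log2 fold change in IC was 0.97. Col12a1 (mean of 3.91 TPM in IS) and the transmembrane Col13a1 (2.29 TPM) rose in IS, by 1.15 ± 0.32 and 1.96 ± 0.47, and both lost this call without Normal replicate 3, at adjusted p of 0.0681 and 0.0727, and Col12a1 also without Normal replicate 1 (0.0784) or IS replicate 4 (log2 fold change of 0.89).

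The other collagens that fell were Col14a1, Col19a1 and Col25a1. Col14a1, a fibril-associated collagen that binds to type I fibers, stood at 0.902 and 1.02 TPM in Normal, 0.413, 0.342 and 0.280 in IC, 0.201, 0.110 and 0.158 in IS and 0.195, 0.207 and 0.159 in IS-HA. It was scarce, with 49 and 54 counts in Normal and 4 to 9 in the rats of IS and IS-HA, and its Normal rats lay above every injured rat. The log2 fold change was -1.52 ± 0.35, -2.59 ± 0.39 and -2.37 ± 0.38 (edgeR adjusted p = 0.0138, 0.000554 and 0.00145), and in IC the call was lost without either Normal rat, IC replicate 3 or IC replicate 4, at an adjusted p of 0.0525 to 0.115. Col14a1 and Col3a1 thus changed in opposite directions in all 3 groups.

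Col25a1, a transmembrane collagen made by neurons, stood at 11.9 and 24.9 TPM in Normal, 7.51, 6.11 and 3.83 in IC, 2.71, 2.30 and 1.02 in IS and 8.12, 1.12 and 13.5 in IS-HA. It was the collagen with the third highest mean in Normal, the IS rats lay below every IC rat, and IS-HA replicate 2 stood with IS while the other IS-HA rats lay above all IC rats. It fell in IS, and its log2 fold change was -1.71 ± 0.64, -3.16 ± 0.67 and -1.36 ± 0.64 (edgeR adjusted p = 0.0855, 0.00340 and 0.121). In IC it was called lower without IS-HA replicate 2, at -1.71 ± 0.36 (edgeR adjusted p = 0.00631), with the groups compared alone, and by DESeq2's Wald test and voom. Col19a1, another collagen made by neurons in the brain, stood at 2.40 and 6.10 TPM in Normal, 2.07, 0.847 and 0.341 in IC, 1.53, 0.959 and 0.601 in IS and 2.11, 0.252 and 2.06 in IS-HA. The Normal rats differed from each other more than 2-fold, and the call of its log2 fold change of -2.01 ± 0.73 in IS (edgeR adjusted p = 0.0403) was lost without Normal replicate 3, IC replicate 3, IS replicate 3, IS replicate 4 or IS-HA replicate 3, at adjusted p of 0.0502 to 0.305. Markers of neurons were read beside these genes. Of 9 striatal neuron markers 8 fell in IS, 8 in IS-HA and 1 in IC. Of 4 general neuron markers, 3, 1 and 1 fell in the same order of groups. In IS-HA, where Col25a1 and Col19a1 did not pass, the striatal neuron markers summed to 3026, 2203 and 1363 TPM. The general neuron markers summed to 1262, 570 and 1093 TPM in these rats. The shares of all genes that fell were 17.0% in IS, 7.71% in IS-HA and 2.66% in IC. The part of these neurons in the result was not tested, and in bulk tissue fewer cells of a type and less RNA per cell cannot be told apart.

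The remaining members passed in no comparison or were not tested. Col9a3, the second most abundant collagen in Normal, had means of 27.0 ± 1.77 TPM in Normal, 35.7 ± 8.72 in IC, 32.7 ± 8.71 in IS and 33.1 ± 1.85 in IS-HA, and Col9a2 of 7.94 ± 2.06 TPM in Normal, 8.84 ± 1.99 in IC, 7.72 ± 3.65 in IS and 8.03 ± 0.289 in IS-HA, and neither passed in any comparison. Col9a1 stood at 0.323 and 1.09 TPM in Normal, 0.991, 0.450 and 0.834 in IC, 0.756, 0.721 and 1.80 in IS and 1.63, 0.799 and 2.57 in IS-HA, with 1 IS rat and 2 IS-HA rats above both Normal rats. Col20a1, Col22a1, Col23a1 and Col17a1, at means of 4.28 TPM or less, passed in no comparison, and Col20a1 overlaps the coding gene Chrna4. Col26a1, Col28a1 and Col6a5, which were not tested, had means of at most 0.515, 0.254 and 0.129 TPM.

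Between the injured groups no collagen passed the cutoffs with all 11 rats. In IS against IC, 0 of 40 rose and 0 fell, beside 0.0% of all genes in each direction. At an unadjusted p under 0.05, 14 of 40 collagens differed (22.2% of all genes), of which 1 higher and 4 lower in IS also passed the fold cutoff (3.37% and 5.15% of all genes). DESeq2's Wald test called 0 higher and 2 lower (Col11a2 and Col4a3), where it called 1.63% and 2.2% of all genes, and voom with a quality weight per rat called Col3a1 higher and Col4a3 lower, where it called 2.15% and 2.81%, so that these counts were near the background. The median log2 fold change of the 40 was 0.31, and that of all genes was 0.00. In 9 collagens every IS rat lay above every IC rat and in 5 below (19.2% and 18.7% of all genes).

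The 3 collagens with the smallest unadjusted p in IS against IC were Col11a2, Col6a2 and Col4a3. Col11a2 had a log2 fold change of -1.02 ± 0.29 (unadjusted p = 0.00494, edgeR adjusted p = 0.148). Col6a2 stood at 0.73 ± 0.21 (0.00498, adjusted 0.148) and Col4a3 at -1.44 ± 0.45 (0.00827, adjusted 0.156) in the same edgeR fit. All 5 tested type VI genes had positive values, from 0.35 for Col6a6 to 1.31 for Col6a4, with adjusted p of at least 0.148. In a fit without IS-HA replicate 2, which holds the same IS and IC rats, 3 of 40 collagens were called lower in IS, beside 3.87% of all genes, and 0 higher, beside 2.19%. They were Col4a3 at -1.44 ± 0.28, Col25a1 at -1.44 ± 0.36 and Col11a2 at -1.02 ± 0.29 (edgeR adjusted p = 0.0228, 0.0341 and 0.0440).

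In IS-HA against IS, 0 of 40 collagens rose, beside 0.00635% of all genes, and 0 fell, beside 0.0%. At an unadjusted p under 0.05, 11 of 40 differed (8.94% of all genes), of which 1 higher (Col25a1) and 1 lower (Col6a4) in IS-HA also passed the fold cutoff (2.74% and 0.908%), and neither DESeq2's Wald test nor voom called any. The median log2 fold change was -0.13, and that of all genes was 0.05. In 2 collagens every IS-HA rat lay above every IS rat and in 9 below, where 4.96% and 5.42% of all genes did so. The smallest unadjusted p belonged to Col7a1 at -0.63 ± 0.17, Col18a1 at -0.66 ± 0.20 and Col6a2 at -0.61 ± 0.21, with unadjusted p of 0.00347, 0.00796 and 0.0140 and edgeR adjusted p of 0.499, 0.540 and 0.540. For Col4a2, Col6a2, Col7a1, Col15a1 and Col18a1 the TPM of each IS-HA rat was below that of each IS rat. The 5 type VI genes had negative values, from -1.45 for Col6a4 to -0.36 for Col6a6. This comparison shares the IS rats with that of IS against IC, so that opposite signs in the 2 comparisons are not independent.

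Without IS-HA replicate 2, 2 of 40 collagens were called higher in IS-HA than in IS, beside 2.48% of all genes, and 0 lower, beside 0.541%. They were Col25a1 at 2.26 ± 0.39 and Col4a3 at 1.30 ± 0.31 (edgeR adjusted p = 0.0360 and 0.0463), where the fit with all rats gave 1.80 ± 0.62 and 0.94 ± 0.46 (edgeR adjusted p = 0.540 and 0.563). Col15a1, Col18a1 and Col7a1 then stood at -1.06 ± 0.38, -0.79 ± 0.21 and -0.67 ± 0.17, with edgeR adjusted p of 0.0972, 0.0545 and 0.0517.

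**Figure D5:**
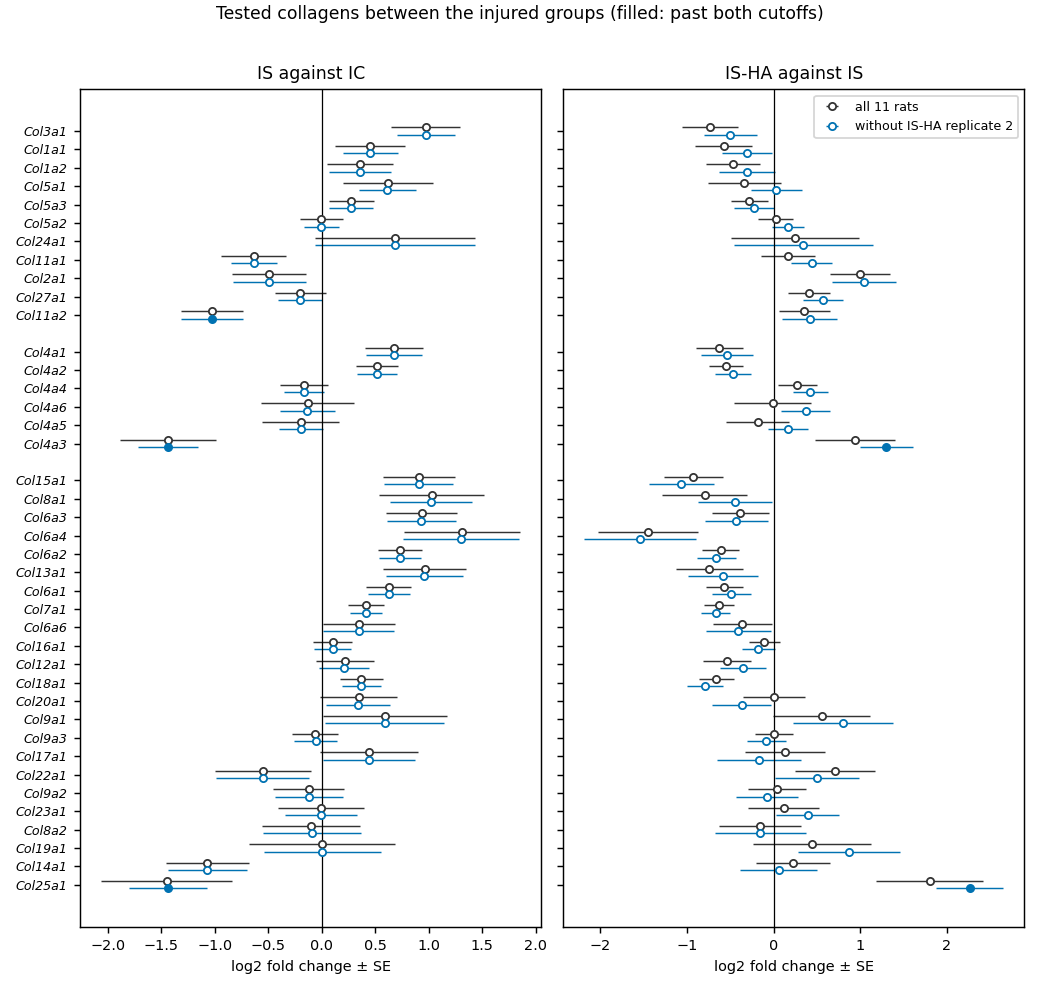
Points give the log2 fold change (x axis) of the 40 tested collagens, with bars of 1 SE, for IS against IC and for IS-HA against IS, fitted with all 11 rats (black) and without IS-HA replicate 2 (blue). Filled points passed both cutoffs. None did with all rats, and without IS-HA replicate 2 they were Col4a3, Col25a1 and Col11a2 in the first comparison and Col25a1 and Col4a3 in the second.

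In IS-HA against IC, 0 of 40 collagens passed in either direction, beside 0.0% of all genes in each, with 2 at an unadjusted p under 0.05 (4.97% of all genes), 0 of which passed the fold cutoff, and 0 called by DESeq2's Wald test or voom. The median log2 fold change was 0.01, and that of all genes was 0.03. Groups did not overlap for 2 collagens higher and 3 lower in IS-HA (4.66% and 4.36% of all genes). Col11a2 stood at -0.67 ± 0.29, Col14a1 at -0.84 ± 0.38 and Col9a1 at 1.15 ± 0.56, with unadjusted p of 0.0419, 0.0466 and 0.0672 and an edgeR adjusted p of 0.841 for each.

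Of 22 tested genes of collagen synthesis and folding, 6 rose in IC (27.3%, beside 10.9% of all genes), 11 in IS (50.0%, beside 18.8%) and 10 in IS-HA (45.5%, beside 15.1%), the others did not pass, and 0 fell. Crtap, part of the prolyl 3-hydroxylation complex, had a log2 fold change of 1.55 ± 0.34, 2.41 ± 0.35 and 1.88 ± 0.35 in IC, IS and IS-HA (edgeR adjusted p = 0.0106, 0.000459 and 0.00292). Plod2, the lysyl hydroxylase of collagen telopeptides, stood at 1.97 ± 0.33, 2.31 ± 0.34 and 1.68 ± 0.33, Serpinh1, the collagen chaperone HSP47, at 1.44 ± 0.28, 2.22 ± 0.29 and 1.61 ± 0.28, and P4hb, a subunit of prolyl 4-hydroxylase, at 1.42 ± 0.30, 2.18 ± 0.31 and 1.78 ± 0.30. Serpinh1 reached 58.2 and 47.2 TPM in Normal, 118, 212 and 122 in IC, 231, 244 and 254 in IS and 154, 173 and 155 in IS-HA. All injured rats lay above the Normal rats.

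Of 13 tested genes of procollagen cleavage and cross-linking, 4 rose in IC (30.8%, beside 10.9% of all genes), 6 in IS (46.2%, beside 18.8%) and 5 in IS-HA (38.5%, beside 15.1%). In IC 0 fell, and in IS and IS-HA 2 each (15.4%, beside 17.0% and 7.71%). Tgm2, a cross-linking transglutaminase, stood at 2.76 ± 0.54, 3.42 ± 0.56 and 2.90 ± 0.54 (edgeR adjusted p = 0.00569, 0.00083 and 0.00321), Pcolce, an enhancer of procollagen C-proteinase, at 1.76 ± 0.47, 2.93 ± 0.48 and 2.18 ± 0.47, and Loxl2, a lysyl oxidase, at 1.87 ± 0.45, 2.35 ± 0.46 and 1.98 ± 0.45. The genes that fell were Adamts3, a procollagen N-proteinase, at -1.48 ± 0.49, -2.69 ± 0.51 and -2.44 ± 0.50 and Tll1, a C-proteinase, at -0.84 ± 0.51, -1.82 ± 0.54 and -2.37 ± 0.56, in IS and IS-HA.

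Of 7 tested collagen receptors, 1 rose in each group (14.3%, near the shares of all genes) and 1 fell in IS (beside 17.0% of all genes). Itgb1, the common integrin beta chain, rose in the 3 groups by 1.02 ± 0.21, 1.39 ± 0.21 and 1.13 ± 0.21 (edgeR adjusted p = 0.00647, 0.000539 and 0.00277), and Itga1, a collagen-binding integrin chain, fell in IS, at -1.99 ± 0.45 (adjusted p = 0.00450). Of 6 collagen-degrading enzymes, 6 rose in IS (beside 18.8% of all genes) and IS-HA (beside 15.1%). In IC 5 rose (83.3%, beside 10.9%), the exception being Mmp13. Mmp14, the membrane-bound collagenase, stood at 9.23 and 8.85 TPM in Normal, 36.3, 68.1 and 48.5 in IC, 67.3, 53.7 and 89.3 in IS and 65.3, 60.2 and 49.4 in IS-HA, with no overlap between injured and Normal rats. Mmp13, a collagenase of bone and cartilage, had 1 count in Normal replicate 1 and 0 in Normal replicate 3, and stood at up to 0.186 TPM in IC, 0.643 to 1.12 in IS and 0.259 to 0.470 in IS-HA (edgeR adjusted p = 0.412, 0.00319 and 0.0306). Mmp9 had a log2 fold change of 5.45 ± 0.72, 6.61 ± 0.74 and 5.40 ± 0.72 (edgeR adjusted p = 0.000621, 0.000102 and 0.000482). Mmp8, the collagenase of neutrophils, was at 0.0638 and 0 TPM in Normal and between 2.86 and 12.9 TPM in the injured rats, with adjusted p of 0.000819, 0.000375 and 0.00104.

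Of 15 other basement membrane genes, 2 rose in IC (13.3%, beside 10.9% of all genes), 4 in IS (26.7%, beside 18.8%) and 2 in IS-HA (13.3%, beside 15.1%), so that the counts in IC and IS-HA were near the background, and Agrn fell in IS. Hspg2, the basement membrane proteoglycan perlecan, stood at 1.59 ± 0.34, 2.23 ± 0.35 and 1.58 ± 0.34 (edgeR adjusted p = 0.00946, 0.000713 and 0.00681), and Nid2, a linker of laminin and type IV collagen, at 1.01 ± 0.32, 1.64 ± 0.32 and 0.85 ± 0.32, which passed in IC and IS. Lama4, the laminin chain of vessels, stood at 0.91 ± 0.26, 1.21 ± 0.26 and 1.12 ± 0.26. None of the genes of these 5 lists passed between the injured groups (edgeR, same cutoffs) with all rats. Of the 63 tested genes of the lists, 17 had an unadjusted p under 0.05 in IS against IC (beside 22.2% of all genes), 9 in IS-HA against IS (beside 8.94%) and 4 in IS-HA against IC (beside 4.97%). DESeq2's Wald test called 0 in each. With voom, 3 were called higher in IS than in IC (beside 2.15% of all genes), 2 lower in IS-HA than in IS (beside 0.603%) and 0 between IS-HA and IC.

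Markers of cells that make collagen, and of other cells of the tissue, were read beside these values. Counts of markers are to be read beside the shares of all genes. These were 10.9%, 18.8% and 15.1% rising in IC, IS and IS-HA, and 2.66%, 17.0% and 7.71% falling. The 8 fibroblast markers had a summed level of 61.1 to 63.8 TPM in Normal, 91.1 to 124 in IC, 95.6 to 162 in IS and 77.8 to 132 in IS-HA, and of the 6 tested, 2 rose in IC (Lum and Dcn), 4 in IS and 3 in IS-HA. Dpt was at 0 in Normal replicate 1 and IS replicate 4, and Mfap5 at 0 in IC replicate 2 and IS-HA replicate 2. The 7 mural cell markers had a summed level of 156 to 164 TPM in Normal, 101 to 156 in IC, 115 to 138 in IS and 76.4 to 130 in IS-HA, with Kcnj8 rising in the 3 groups and Rgs5 falling in IS and IS-HA. The 8 endothelial markers summed to 128 to 177 TPM in Normal, 220 to 256 in IC, 251 to 256 in IS and 211 to 257 in IS-HA, and only Tie1 rose. All 6 microglia and macrophage markers rose in each group, from 134 to 193 TPM in Normal to 1321 to 3636 TPM in the injured rats as a sum. Of 6 choroid plexus markers, 4 tested, whose sum ranged from 2.87 TPM in Normal replicate 1 to 28.3 in IS-HA replicate 1, Folr1 rose in each group, Clic6 in IS-HA, and Kl fell in IS. The 5 astrocyte markers summed to 1067 to 1379 TPM in Normal, 4423 to 6948 in IC, 2884 to 4740 in IS and 3620 to 4876 in IS-HA, with Gfap rising and Slc1a2 falling in each group, and the 5 oligodendrocyte markers to 15511 to 15825 TPM in Normal, 8857 to 12855 in IC, 5117 to 8924 in IS and 7791 to 12468 in IS-HA, with 0 falling in IC, 3 in IS and 0 in IS-HA. The 2 ependymal and 4 cortical glutamatergic markers and 2 red blood cell markers passed in no comparison with Normal. The part of these cells in the collagen values was not tested.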

How the data were processed

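Poly(A) RNA of the ipsilateral striatum of 11 rats was sequenced from 1 stranded mRNA library per rat. The authors deposited raw counts per gene and, beside them, their TPM, which are scaled by gene length and library. The submitters' processing notes name fastp 0.20.0, HISAT2 2.1.0, SAMtools 1.9, featureCounts and the rat build mRatBN7.2, and the annotation version and strand setting of the counting are not given in the sources used here. Groups and replicate numbers came from the labels.

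From the deposited counts, 1 edgeR model (4.0.16, R 4.3.3) with a mean per group, TMM scaling and a quasi-likelihood F test was fitted to the 15742 genes that filterByExpr kept, and 6 comparisons of 2 groups were drawn from it. Calls needed an absolute log2 fold change of 1 and a two-sided Benjamini-Hochberg adjusted p under 0.05. The SE was obtained from the fold change and the root of its F statistic. No test was run on deposited TPM except as an alternative. The common dispersion was 0.0691. The fit was tested on simulated data first.

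Named with all rats' values were 11 collagens of types I, III, IV, V, VI and XVIII, the 5 largest rises and falls of each comparison or, without calls, the 3 smallest p, and from each other list 4 genes. Genes that complete a count of 5 or fewer were also named, after their values were seen. The members, lists and markers were chosen with earlier results of these data known. Alternatives were other scalings, DESeq2 1.42.0, limma 3.58.1 (voom, and log2(TPM + 1)), other filters and cutoffs, a replicate block, thinning to the smallest library and leaving out each rat. Sequences are those of RefSeq (GRCr8), whose coordinates were not compared with the build of the files.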

Additional observations from a re-analysis of the deposited data

How the results depend on the processing

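No call of a collagen reversed. Of the values of single collagens under all alternatives, 5067 kept their side of the cutoffs, 116 lost a call, 30 gained one and 0 reversed, and the sign changed in 209 values, all of collagens without a call. Library size alone moved the median of all genes to 0.14 in IC, 0.15 in IS and 0.18 in IS-HA against Normal. Rises in IC numbered 6 to 13 with a rat left out (6 without either Normal rat, 7 without IC replicate 3), and falls 0 to 4 (0 without Normal replicate 1, 1 without Normal replicate 3, IC replicate 3 or IC replicate 4, 4 without IS-HA replicate 2). Falls in IC numbered 5 with DESeq2's Wald test, 4 with voom, 4 with the groups compared alone, 4 at an unadjusted p, 1 with limma on log2(TPM + 1) and 1 with at least 10 counts in every rat. That last filter gave 3 falls in IS, and limma on TPM gave 1 in IS-HA. Leaving out a rat gave 15 to 19 rises and 4 to 7 falls in IS and 9 to 13 rises and 2 to 4 falls in IS-HA. In IS against IC, voom gave 1 higher and 1 lower, DESeq2 2 lower, an unadjusted p 1 higher and 4 lower, and a rat left out 0 higher and 0 to 3 lower (3 without IS-HA replicate 2). In IS-HA against IS an unadjusted p gave 1 higher and 1 lower, and a rat left out 0 to 2 higher (2 without IS-HA replicate 2) and 0 lower. In IS-HA against IC a rat left out gave 0 in each direction. The cause of these moves was not tested.

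Deviations of rats with the same replicate number had a mean r of 0.031 over 3 pairs of IS and IC (0.394, -0.384 and 0.083). The mean was -0.302 for IS-HA and IS and -0.174 for IS-HA and IC. So few pairs, with deviations tied within each small group, cannot decide whether the numbers pair the rats. The numbers were not used as pairs in the main fit. A replicate block gave 7 rises and 0 falls in IC, 14 and 3 in IS, and 12 and 2 in IS-HA. The 2 Normal rats, the 3 rats in each other group and the 6701301 counts of the smallest library limit the precision of every value.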
